A study of Mus musculus with 6 samples.

Results

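The ribosomal protein genes Rpl3, Rpl3l, Rpl22 and Rpl22l1 form 2 paralog pairs, and they were taken by their symbols from arrays of mouse muscle RNA. Named probes were found for 3 of the 4 genes, out of 18563 genes with a named probe in all. Rpl3 and Rpl3l had 1 probe each and Rpl22 had 3. No probe is named for Rpl22l1 here, so Rpl22l1 was not analysed and Rpl22 could not be set against its partner. A probe for Rpl22l1 could exist among the 12135 transcript probes without a symbol. RNA came from 3 Rpt3 null mice and 3 control mice, all female and 6 weeks old, with 1 array for each mouse. Per the labels the tissue was tibialis anterior and every mouse carried mlc1f-Cre with floxed Rpt3, whereas the paper gives gastrocnemius for its microarray and Mlc1f-Cre with wild-type Rpt3 for its controls. Mlc1f-Cre is active in fast-twitch fibers and its excision is incomplete, so Rpt3 (Psmc4), an ATPase subunit of the proteasome, may remain in part of the muscle. In which cells it remained was not tested.

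Ribosomal proteins are built into every ribosome together with ribosomal RNA, and their genes are usually expressed in balanced amounts. A few have paralogs whose products can take the same place in the ribosome. RPL3 sits near the peptidyl transferase center of the large subunit, and RPL3L replaces it in a share of the ribosomes of skeletal muscle and heart. RPL22 is an RNA-binding protein on the surface of the large subunit, and it is known to hold down its own paralog RPL22L1.

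The 2 genes of the Rpl3 pair changed in opposite directions in Rpt3 null muscle. The striated muscle form Rpl3l was 2.13-fold lower and the ubiquitous form Rpl3 was 1.90-fold higher than in control muscle. Rpl22 was 1.88-fold higher by its brightest probe. Differences are given as log2 fold changes (log2FC, Rpt3 null minus control) with their standard error (SE), and a gene was called where limma, a linear model fitted over all genes, gave it a Benjamini-Hochberg adjusted p under 0.05. Of 14730 tested genes 12.7% were called higher and 6.56% were called lower, so that 2 of the 3 measured members stood among the former and 1 among the latter. All 3 passed the filter on dim probes and were above background on all 6 arrays.

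The share of transcript probes above background was between 57.0% and 74.5% and was lowest on control array 2. For Psmc4, the deleted gene, the brighter probe read 10.01, 9.78 and 9.85 in log2 intensity on the Rpt3 null arrays and 11.16, 10.91 and 11.06 on the control arrays (log2FC -1.17, SE 0.13, limma adjusted p = 0.000304). A dimmer second probe, at -0.23, missed the threshold (limma adjusted p = 0.379 over probes), and no source used here says how the probes lie to the deleted part. Of 16 tested fast fiber markers 15 were above background on all arrays, and the other, Acta1, had no usable spot on control array 3. Of 10 heart-restricted markers 5 were tested, Myh6 and Nppa not being among them. All 5 were above background on all arrays and 1 was called lower, the cardiac ryanodine receptor Ryr2 (log2FC -0.44, limma adjusted p = 0.0471). For 3 of the 5 the Rpt3 null arrays lay entirely below the control arrays, against 15.6% of all tested genes. Of all called genes 65.9% were higher, against 80.9% when arrays were centred on their medians instead, 3.08% when they were centred on their medians and then on Actb, and, on quantile-normalized values, 90.7% with centring on fast fiber markers and 4.21% with centring on large subunit ribosomal proteins. In whole muscle, fewer cells of a type and less RNA in each cell cannot be told apart.

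The sequences upstream of Rpl3l and Rpl22 are shown because these genes moved in opposite directions. RefSeq (GRCm38.p6) lists 2 start sites for each of them and an entry for Rpl22l1, and Rpl3 has no entry in the table. The 250 bases before each start site are given 5′ to 3′ on the plus strand. Capitals mark matches, on either strand, to the E-box CANNTG, to which myogenic factors bind, to the consensus of the muscle factor MEF2 and to TGACNNNGC, the core of the antioxidant response element. CAGCTG is a form of the E-box and is counted in both.
Rpl3l, chr17:24727576-24727825: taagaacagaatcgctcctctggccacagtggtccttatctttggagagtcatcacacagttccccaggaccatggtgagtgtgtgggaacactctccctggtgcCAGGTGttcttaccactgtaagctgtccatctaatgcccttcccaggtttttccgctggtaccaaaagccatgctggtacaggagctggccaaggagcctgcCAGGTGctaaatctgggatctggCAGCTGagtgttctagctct
Rpl3l, chr17:24732435-24732684: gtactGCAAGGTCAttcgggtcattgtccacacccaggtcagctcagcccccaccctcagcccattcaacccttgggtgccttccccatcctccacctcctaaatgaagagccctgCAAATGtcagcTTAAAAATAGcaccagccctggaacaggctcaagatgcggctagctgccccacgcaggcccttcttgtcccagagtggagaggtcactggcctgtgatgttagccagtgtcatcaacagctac
Rpl22, chr4:152324186-152324435: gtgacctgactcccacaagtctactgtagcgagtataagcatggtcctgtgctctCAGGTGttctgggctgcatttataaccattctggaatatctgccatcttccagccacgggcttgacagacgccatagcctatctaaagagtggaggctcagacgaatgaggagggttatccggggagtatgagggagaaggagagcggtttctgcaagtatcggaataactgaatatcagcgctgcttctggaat
Rpl22, chr4:152325476-152325725: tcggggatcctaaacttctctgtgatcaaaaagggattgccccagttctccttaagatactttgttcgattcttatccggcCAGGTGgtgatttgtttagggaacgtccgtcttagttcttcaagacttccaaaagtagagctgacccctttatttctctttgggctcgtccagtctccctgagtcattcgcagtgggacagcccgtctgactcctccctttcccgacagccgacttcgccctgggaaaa
The first Rpl3l window held 3 E-boxes, among them a CAGCTG at position -20 counted from the start site, and the second held 1 E-box, 1 MEF2 match at position -123 and 1 match to the antioxidant response element core. Each Rpl22 window held 1 E-box and no match to the other motifs. Of 32851 windows of the same length in the table, 66.2% held an E-box, 13.0% held CAGCTG, 2.92% held a MEF2 match and 10.2% the antioxidant response element core. A match is a description of the letters and not a binding site.

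Rpl3l, the striated muscle paralog, had log2 intensities of 10.89, 11.47 and 11.46 on the Rpt3 null arrays and of 12.50, 12.26 and 12.34 on the control arrays. The groups did not overlap, and the lowest value was that of Rpt3 null array 1, which stood apart from the other 2 Rpt3 null arrays. For 15.6% of all tested genes the Rpt3 null arrays lay entirely below the control arrays. Averaged by group, these were 11.27 ± 0.33 (SD, n = 3) in Rpt3 null and 12.37 ± 0.12 (SD, n = 3) in control muscle, which gives a log2FC of -1.09 (SE 0.17, 95% interval -1.48 to -0.71, limma adjusted p = 0.00188). Of the 14730 genes, Rpl3l had the 118th lowest fold change. Before normalization the same probe read 2216, 3030 and 3277 above its local background on the Rpt3 null arrays and 5703, 3540 and 4305 on the control arrays, so that these raw intensities did not overlap either. In the authors' value table its log2 fold change was -0.93 (limma adjusted p = 0.0339). Without Rpt3 null array 1 the fall was smaller, with a log2FC of -0.89 (limma adjusted p = 0.00751).

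Rpl3, the partner used in all tissues, had log2 intensities of 10.45, 10.69 and 10.84 on the Rpt3 null arrays and of 9.44, 9.96 and 9.79 on the control arrays. Every Rpt3 null array lay above every control array, which was so for 21.2% of all tested genes. Rpt3 null muscle averaged 10.66 ± 0.19 (SD, n = 3) and control muscle 9.73 ± 0.26 (SD, n = 3), and the log2FC was 0.93 (SE 0.17, 95% interval 0.56 to 1.30, limma adjusted p = 0.00383). The probe read 1590, 1738 and 2096 above its local background on the Rpt3 null arrays and 766, 633 and 731 on the control arrays before normalization. These raw values showed the same separation. The gene table lists the pseudogenes Rpl3-ps1 and Rpl3-ps2, as well as Rpl22-ps1, and signal from near-identical transcripts cannot be told apart from that of the gene by these probes.

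**Figure D1:**
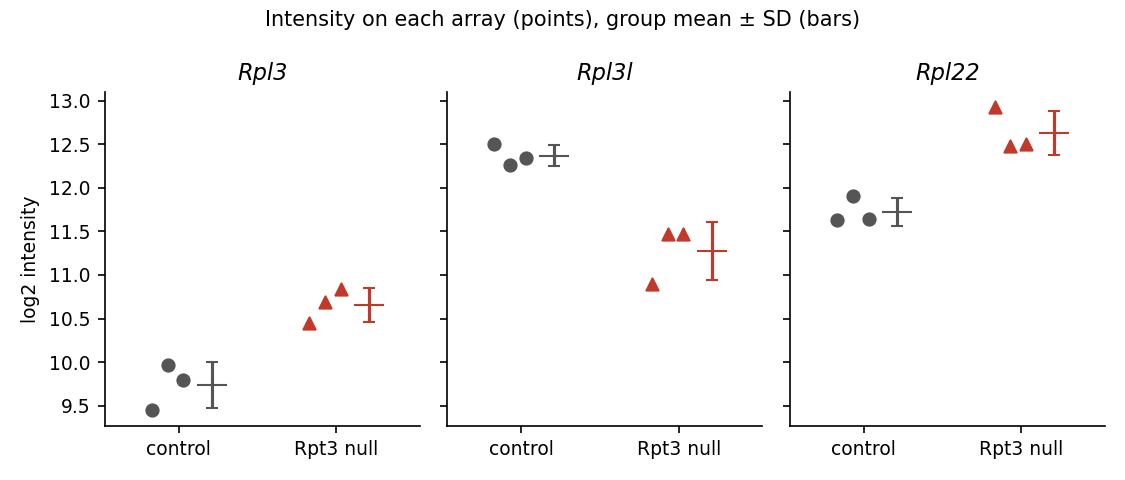
Log2 intensity of Rpl3, Rpl3l and Rpl22 (brightest probe) after quantile normalization. Gray circles are the 3 control arrays, red triangles the 3 Rpt3 null arrays, and the bars the group mean ± SD. For Rpl3l the Rpt3 null arrays lie between 10.89 and 11.47, below the control arrays, and for Rpl3 and Rpl22 they lie above the control arrays. Levels of different probes cannot be compared with each other.

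To compare the paralogs directly, the log2 intensity of Rpl3 was subtracted from that of Rpl3l on each array. This difference was 0.44, 0.77 and 0.63 on the Rpt3 null arrays and 3.05, 2.30 and 2.55 on the control arrays. The groups lay far apart compared with the spread within either of them. Relative to Rpl3, Rpl3l was 4.06-fold lower in Rpt3 null muscle, a difference of -2.02 on the log2 scale with a standard error of 0.24 (n = 3 and 3). A two-sided exact permutation test gave p = 0.10, the smallest value that 3 arrays against 3 can give. A shift that moves all probes of an array alike cancels from this difference, and it stayed between -2.18 and -1.84 in the 15 alternatives in which it was computed. Some of these could not move it. The mean of probes and the replicate block left it at -2.02, and Actb centring gave the same -1.93 as median centring alone. The difference within 1 group is not a ratio of transcript amounts, since levels of different probes cannot be compared.

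**Figure D2:**
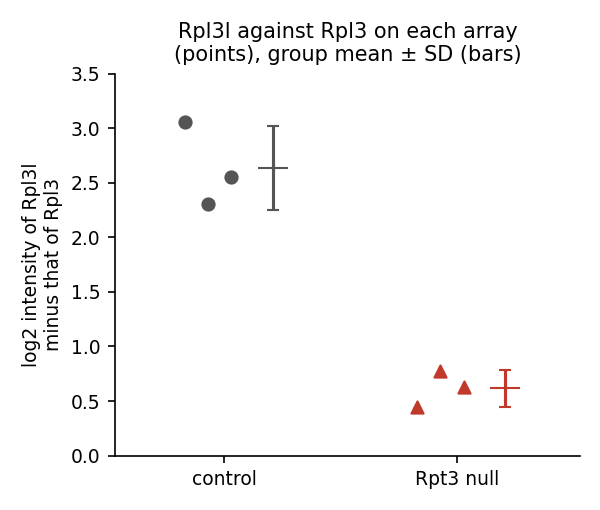
Log2 intensity of Rpl3l minus that of Rpl3 on each array, with control arrays as gray circles, Rpt3 null arrays as red triangles and group means ± SD as bars. The control arrays lie between 2.30 and 3.05 and the Rpt3 null arrays between 0.44 and 0.77.

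Rpl22, which encodes an RNA-binding ribosomal protein, was read by 3 probes that were all higher in Rpt3 null muscle. By the brightest (GE118318) the log2 intensities were 12.93, 12.48 and 12.50 on the Rpt3 null arrays and 11.63, 11.91 and 11.64 on the control arrays. The groups did not overlap, and Rpt3 null array 1, the lowest of its group for Rpl3l, was the highest here. With averages of 12.63 ± 0.25 (SD, n = 3) in Rpt3 null and 11.73 ± 0.16 (SD, n = 3) in control muscle, the log2FC was 0.91 (SE 0.16, 95% interval 0.55 to 1.26, limma adjusted p = 0.00331). In a fit over 16956 probes, of which 12.2% were called higher and 6.34% lower, the probe GE1481781 had a log2FC of 0.84 (limma adjusted p = 0.00246). The dimmest probe, GE113271, had 0.47 (limma adjusted p = 0.0219). Its log2 intensities were 10.20, 10.14 and 10.24 on the Rpt3 null arrays and 9.78, 9.62 and 9.75 on the control arrays. The 3 probes thus had 1 direction, but the size of the rise ranged from 1.39-fold to 1.88-fold. All 3 carry the same RefSeq transcript in the scanner reports, and probes of 1 gene on the same arrays are not replicates. The mean of the 3 probes had a log2FC of 0.74 (limma adjusted p = 0.00312).

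**Figure D3:**
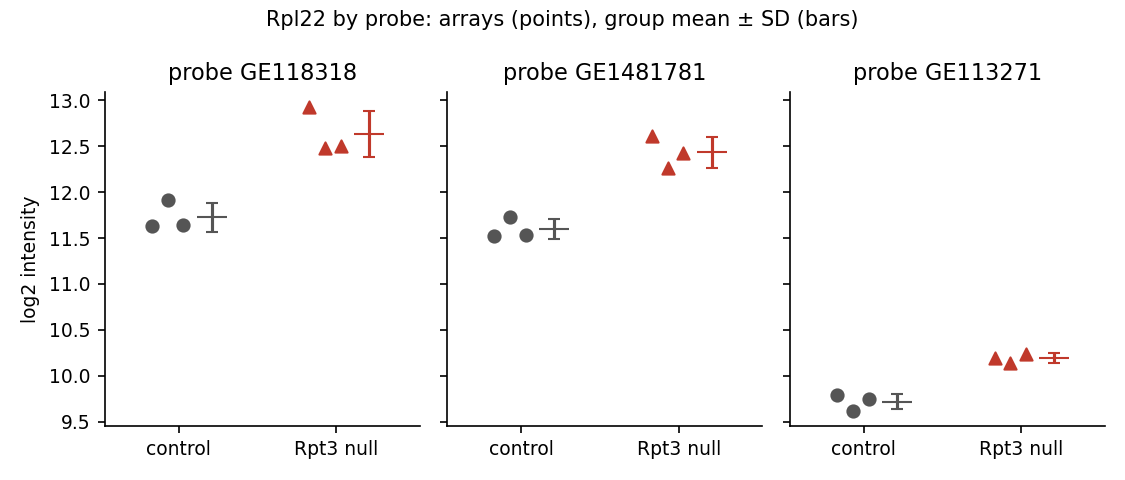
Log2 intensity of each of the 3 Rpl22 probes, with control arrays as gray circles, Rpt3 null arrays as red triangles and group means ± SD as bars. In every panel the 3 Rpt3 null arrays lie above the 3 control arrays, with log2 fold changes of 0.91, 0.84 and 0.47 from left to right.

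The genes of the cytosolic ribosome were compared with the members as their pathway. Of 35 tested genes of the large subunit other than Rpl3 and Rpl22, limma called 21 higher and 0 lower, with a median log2FC of 0.62. Of 23 tested genes of the small subunit it called 18 higher and 0 lower, with a median of 0.70. At an unadjusted p under 0.05 the counts were 32 higher and 0 lower, and 21 higher and 0 lower. The share of all tested genes at that limma threshold was not computed, here or for the lists below. With median and then Actb centring in place of quantile normalization, limma called 3 large subunit genes higher and 3 lower, and 2 small subunit genes higher and 2 lower. In that setting 328 of all tested genes were called higher and 10333 lower. Their median log2FC was -0.72, against 0.16 for the large and 0.17 for the small subunit genes. On the quantile-normalized values the median over all tested genes was -0.01, and limma called 12.7% of them higher and 6.56% lower. The largest rises were those of Rpl13a, with a log2FC of 1.21 (limma adjusted p = 0.000308), and Rpl14, with 1.14, in the large subunit, and of Fau and Rps20, both with 1.09, in the small subunit. Rpl3 and Rpl22 lay in the upper part of this range, since 8 and 9 of the 58 other genes had a larger log2 fold change. Rpl3l lay below all 58. The lowest of these was Rpl17, at -0.30 by the brighter of its 2 probes, which missed the threshold (limma adjusted p = 0.199). The count of the large subunit was 13 without control array 3.

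**Figure D4:**
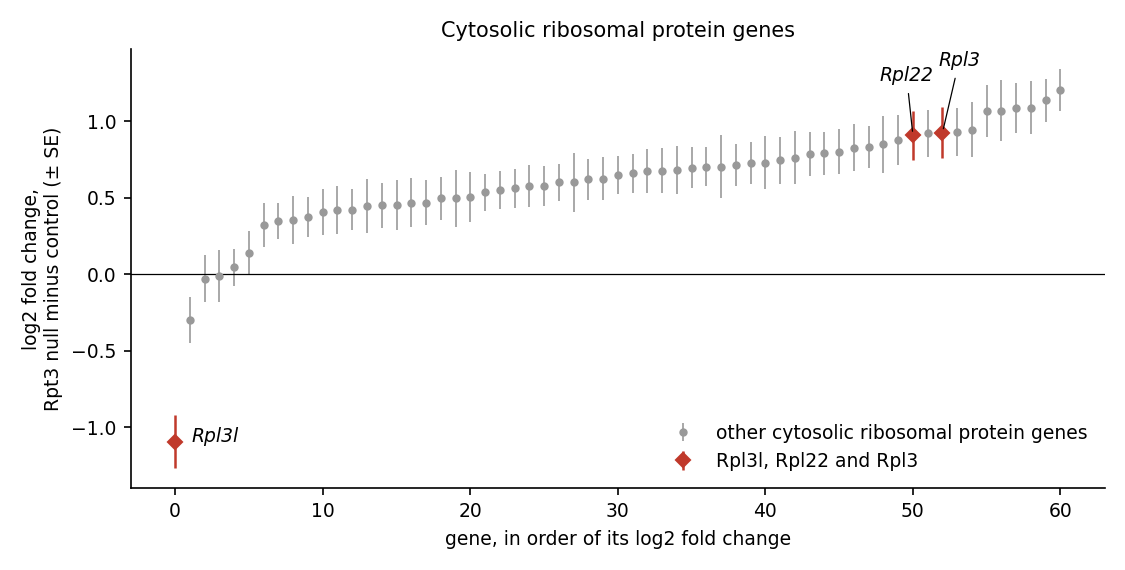
Log2 fold change (Rpt3 null minus control) with its standard error for 58 cytosolic ribosomal protein genes (gray) and for Rpl3l, Rpl22 and Rpl3 (red diamonds), in order of the fold change. Rpl3l, at -1.09, lies below every gray point, and Rpl22 and Rpl3, at 0.91 and 0.93, lie among the higher ones.

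The members were then read relative to the other ribosomal protein genes, a scaling chosen after the data were seen. With each array centred on the mean of the large subunit genes, the median log2 fold change of all genes moved from -0.01 to -0.61. Rpl3l then had a log2FC of -1.70 (limma adjusted p = 0.00043). That of Rpl3 was 0.32 (limma adjusted p = 0.114) and that of Rpl22 0.31 (limma adjusted p = 0.0673), so that neither passed the test. Another scaling replaced quantile normalization by 2 steps. After median centring alone Rpl3 had 1.15, Rpl22 had 1.21 and Rpl3l had -0.78, and all 3 passed the test. After median and then Actb centring Rpl3 had 0.39 (limma adjusted p = 0.130) and Rpl22 0.44 (limma adjusted p = 0.0723), which did not pass, and Rpl3l had -1.55. The median over all genes was then -0.72, against 0.05 with median centring alone. Actb had a log2FC of 0.45 (limma adjusted p = 0.0294) on the quantile-normalized values. Over all alternatives the adjusted p ranged from 0.000224 to 0.130 for Rpl3, from 6.27e-05 to 0.0546 for Rpl3l and from 0.000457 to 0.0723 for Rpl22.

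Other ribosomal proteins with a paralog served as a comparison for the Rpl3 pair. Rpl39l, the paralog of Rpl39, had log2 intensities of 7.43, 7.61 and 7.35 on the Rpt3 null arrays and of 7.84, 7.72 and 7.71 on the control arrays, so that its log2FC of -0.29 missed the threshold (limma adjusted p = 0.144). Rpl39 itself was higher, with 0.67 (limma adjusted p = 0.00902). Rpl7l1, the paralog of Rpl7, had a log2FC of 0.01 (95% interval -0.37 to 0.39, limma adjusted p = 0.981) and Rpl7 had 0.41 (limma adjusted p = 0.0923). Rpl7 and Rpl7l1 had 3 probes each, and only the brightest of each was read. Rpl36al and its partner Rpl36a ran side by side, with 0.52 (limma adjusted p = 0.0138) and 0.47 (limma adjusted p = 0.0705). Rps27l, a target of p53, was higher with 0.54 (limma adjusted p = 0.0382), and Rps4x had 0.38 by the brighter of its 2 probes (limma adjusted p = 0.0729).
As a difference within each array, the paralog fell against its partner by 0.97 for Rpl39l (SE 0.18) and by 0.40 for Rpl7l1 (SE 0.16), and Rpl36al against Rpl36a stood at 0.06 (SE 0.14). The exact permutation test over the 4 pairs, with Benjamini-Hochberg adjustment, gave p = 0.133 for the Rpl3, Rpl7 and Rpl39 pairs and p = 0.90 for the Rpl36a pair. The Rpl3 pair had the largest difference of the 4, -2.02, and was the 1 pair in which a paralog and its partner passed the test in opposite directions.

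Factors that assemble ribosomes or transcribe ribosomal RNA were higher for 12 of 40 tested genes and lower for 0 by limma (15 and 1 at an unadjusted p under 0.05), with a median log2 fold change of 0.15. Among all tested genes limma called 12.7% higher and 6.56% lower. Sbds, which acts in the last maturation steps of the large subunit, had 0.89 (limma adjusted p = 0.000805), the export adaptor of the large subunit Nmd3 had 0.86 and the snoRNP protein Nhp2 had 0.80. Outside the rule for named genes, 2 factors that act on RPL3 itself were read for that role. Grwd1, its chaperone, had a log2FC of 0.04 (95% interval -0.25 to 0.34, limma adjusted p = 0.867), and Mettl18, which methylates it, had 0.15 (95% interval -0.16 to 0.46, limma adjusted p = 0.508). Neither passed the test.

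Markers of fiber type and of other cells moved on the same arrays. Each count of called markers is to be read beside the 12.7% of all tested genes called higher and the 6.56% called lower by limma. Summed intensities, here and for the lists that follow, were taken after normalization. Each summed value holds the offset of 50 added in background correction, which weighs most in lists of dim genes. Of 16 tested fast fiber markers 5 were lower and 1 was higher, with a median log2 fold change of -0.21, and 8 of the 16 had a saturated spot on at least 1 array. Casq1, the calcium store protein of fast fibers, had -0.98 (limma adjusted p = 0.000716), Myl1, whose promoter drives the Cre, had -0.85, and Myh1, the IIx myosin heavy chain, rose by 0.70. The summed intensity of the 15 markers with no missing spot was between 247792 and 261596 on the Rpt3 null arrays and between 289847 and 308295 on the control arrays. With each array centred on the mean of these markers, a scaling chosen after the data were seen, Rpl3l had a log2FC of -0.84 (limma adjusted p = 0.00232), while the median over all genes was 0.24. The part of fast fiber loss in the fall of Rpl3l was not tested.
Slow fiber markers were higher for 7 of 11 tested genes and lower for 0 (7 and 0 at an unadjusted p under 0.05 from limma), including the slow troponin I Tnni1 with a log2FC of 1.36. Their summed intensity was 40062 to 43869 on the Rpt3 null arrays and 29148 to 33697 on the control arrays. Markers of immature and regenerating fibers were higher for 9 of 15 and lower for 1, with a median log2 fold change of 0.92 and the embryonic light chain Myl4 at 4.01. Their sums, which the brightest genes dominate, were 32952 to 35903 and 28730 to 31270. Their mean log2 intensity was 9.65 to 10.10 on the Rpt3 null arrays and 8.48 to 8.62 on the control arrays.
Macrophage markers were higher for 10 of 15 tested genes and lower for 0 (11 and 0 unadjusted), with a median log2 fold change of 1.38 and sums of 8888 to 13012 on the Rpt3 null arrays and 3607 to 4056 on the control arrays. The complement gene C1qa had 2.13, whereas Adgre1, Cd68, Csf1r, Itgam and Ptprc were not tested. Fibroblast markers were higher for 6 of 15 and lower for 0 (9 and 0 unadjusted), with sums of 45461 to 46147 against 30667 to 34463. Of 9 tested endothelial markers limma called 0 (1 lower unadjusted, 0 by the methods' t-test after adjustment), and their sums were 2607 to 2862 against 2673 to 3252. The part of these cells in the rise of Rpl3 and Rpl22 was not tested.

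The genes whose profile over the 6 arrays was most like that of each member were found by the root-mean-square difference of log2 intensities, each gene being centred on its own mean. For Rpl3l they were Tln2, which encodes talin 2, at 0.107, then Slc25a11, the mitochondrial oxoglutarate carrier, Fanca, Frmpd1 and Oxct1, an enzyme of ketone body use, at 0.130. Their log2 fold changes ran from -1.25 for Oxct1 to -0.96 for Slc25a11. For Rpl3 they were Alg5, an enzyme of protein glycosylation, at 0.036, then Ctnnbl1, Dnajc2, a chaperone bound to ribosomes, Tmem39a and Plch2, at 0.068. Plch2 was not above background on any control array. For Rpl22 they were Slc38a6, at 0.044, then Tuba1b, an alpha-tubulin, Tmem219, Morn2 and Penk, which encodes proenkephalin, at 0.057. None of these 15 genes encodes a ribosomal protein, which says little, since the 14680 genes compared held only 58 other cytosolic ribosomal protein genes. The distance is a description over 6 arrays in 2 groups.

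Across the ways of processing, the direction of each member was the same. Filters, variance models, other tests and the replicate block could not change the direction, since they left these fold changes as they were. The log2 fold change of Rpl3l stayed between -1.70 and -0.78, that of Rpl3 between 0.32 and 1.18 and that of Rpl22 between 0.31 and 1.21. Without any 1 of the 6 arrays the members still passed an adjusted p of 0.05 from limma, with highest values of 0.0253 for Rpl3, 0.0118 for Rpl3l and 0.0236 for Rpl22.

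**Figure D5:**
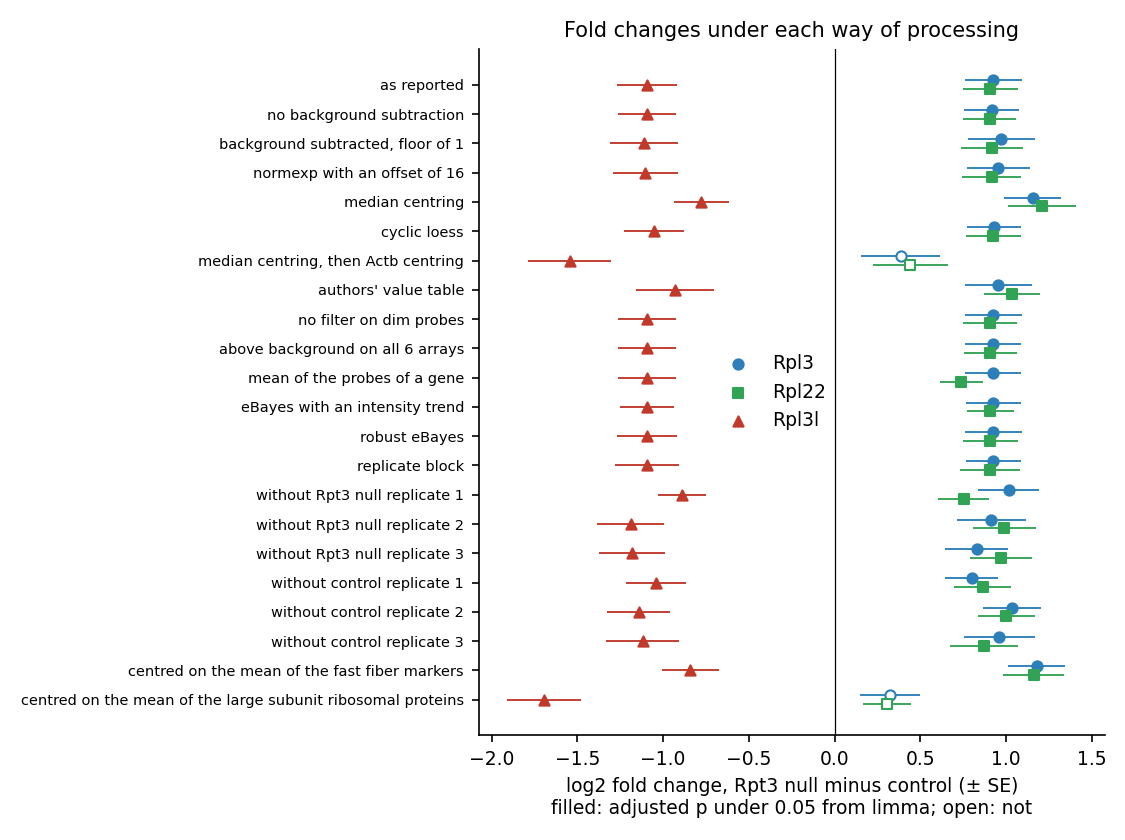
Log2 fold change (Rpt3 null minus control, with its standard error) of Rpl3 (circles), Rpl22 (squares) and Rpl3l (triangles) as reported and under each alternative fitted with limma, with filled symbols where the adjusted p from limma was under 0.05. Rpl3l lies between -1.70 and -0.78 and is filled throughout, and Rpl3 and Rpl22 are open where each array was centred on its median and then on Actb, or on large subunit ribosomal proteins.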

How the data were processed

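RNA from the muscle of 3 Rpt3 null and 3 control mice was read on CodeLink mouse whole-genome bioarrays, 1 array for each mouse. The deposited scanner reports hold linear intensities of each spot and its local background, written by the authors with CodeLink Expression Analysis 5.0.0.31312 and not normalized between arrays. The authors' deposited value table holds background-subtracted intensities on 1 shared distribution, which each followed its own array (correlations of log2 values from 0.998 to 1.000, against at most 0.954 with another).
Spots were corrected for background by normexp (offset 50) and transcript probes were brought to 1 distribution by quantile normalization, after which lmFit and eBayes were applied to log2 intensities (limma 3.58.1, R 4.3.3). Masked and contaminated spots were left out. Probes above background on at least 3 arrays were kept, the brightest standing for a gene, and p-values were adjusted over 14730 genes. Of 34967 transcript probes 21615 took their gene from the platform annotation and 536 from their accession. Another 681 with several symbols and 12135 without a symbol stayed unnamed. Files were read with Python 3.11.15.
The members, gene lists and tests were chosen with earlier results of these data known. Named were the members, all tested genes of the paralog list, Psmc4, up to 4 called genes with the largest change and the lowest adjusted p of each other list, and the 5 nearest profiles of each member. Alternatives were other background corrections, scalings, filters, variance models and probe rules, the value table, the methods' t-test, leaving out single arrays, and a replicate block. On simulated intensities for this comparison with 14730 genes, the fit recovered 50 of 50 genes set higher by 1 (log2) and 44 of 50 set lower by 1. It recovered 28 of 50 set higher by 0.585 and 20 of 50 set lower by 0.585, and 4 unchanged genes were called. Median estimates were 0.82 and -0.73 for the changes of 1 and -1, so the fit understated them. The simulated noise was independent and of the same size for all probes, which real arrays need not follow. The labels describe separate mice, and the number of arrays and signal over background limit the precision.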

Additional observations from a re-analysis of the deposited data

How the results depend on the processing

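Every alternative kept the direction of Rpl3, Rpl3l, Rpl22 and of Rpl3l against Rpl3. Those that changed only the filter, the variance model, the test or the replicate block left the fold changes of the members as they were. In these the direction was fixed in advance. By the methods' t-test on the same values 3 members passed without adjustment, but after Benjamini-Hochberg adjustment none did, with log2 fold changes of 0.93 for Rpl3 (adjusted p = 0.0652), -1.09 for Rpl3l (adjusted p = 0.0546) and 0.91 for Rpl22 (adjusted p = 0.0565). That test called 940 genes higher and 427 lower after adjustment, against 1870 and 967 by limma. Without adjustment it called 2502 higher and 1636 lower. After adjustment it left 12 large subunit and 9 small subunit genes higher, against 21 and 18 by limma. With median and then Actb centring, Rpl3 stood at 0.39 (limma adjusted p = 0.130) and Rpl22 at 0.44 (limma adjusted p = 0.0723). There 328 genes were higher and 10333 lower, with 3 large subunit genes higher and 3 lower, and 2 small subunit genes higher and 2 lower. Centring on the large subunit genes, chosen after the data were seen, gave 0.32 for Rpl3 and 0.31 for Rpl22, with 464 genes higher and 10560 lower, 3 large subunit genes higher and 3 lower, and 3 small subunit genes higher and 2 lower. Centring on fast fiber markers, also chosen then, gave 4020 higher and 410 lower, with 32 large subunit genes higher, and median centring gave 604 lower. Leaving out 1 array gave 1089 to 2323 genes higher and 390 to 1456 lower, with 13 to 25 large subunit and 12 to 19 small subunit genes higher. The counts fell most without control array 3 and Rpt3 null arrays 1 and 3.
Same-numbered arrays deviated from their group means with correlations of -0.44 to 0.13, and other pairs of an Rpt3 null and a control array with -0.48 to 0.47. Of the 3 Rpt3 null arrays 1 correlated best with its own number. With 3 arrays in each group and overlapping ranges, this check cannot show whether the numbers pair the mice. With the replicate block 1722 genes were higher and 873 lower, and the members kept their calls, with an adjusted p of 0.00138 for Rpl3, 0.00122 for Rpl3l and 0.00301 for Rpl22 from limma. Slide could not be fitted as a block, with 1 array on each. Rpl22l1 and its difference from Rpl22 could not be computed under any setting.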
